A study of Homo sapiens with 15 samples.

Results

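Day 4 of differentiation to definitive endoderm was compared with day 1, the streak stage, in H9 cells, an established line of human embryonic stem (ES) cells. The fold changes compare 6 of the 15 bulk RNA libraries, 3 of day 4 and 3 of day 1, chosen by the day in their labels. Of 23346 gene symbols, 17401 had enough counts to be tested. The day 4 cells were in Advanced RPMI 1640 with activin A, a ligand that signals through the Nodal receptors, and had received CHIR99021, which inhibits GSK3 and so turns on Wnt signalling, during the first day only. The day 1 cells were in the same basal medium and had been given activin A together with CHIR99021 since the start. Time in culture and time since CHIR99021 was withdrawn therefore cannot be told apart. The cells of both days came from the same line and had been kept in E8 medium beforehand. The day 0 cells in that medium, and those of days 2 and 3, are described below only as levels. Their libraries also enter the estimate of spread behind the p-values, which all 15 libraries share. The libraries of each day carried the replicate numbers 1, 2 and 4, and values are given in that order. Separate cultures are not stated in any label, and the p-values then measure only the spread between libraries of the same day, which may be technical.

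In the embryo, Wnt and Nodal signals induce the primitive streak, where epiblast cells leave the epithelium and ingress. Cells that see sustained Nodal signalling become definitive endoderm, the source of the gut, liver and pancreas, while cells that keep Wnt, FGF and T-box activity become mesoderm. T (brachyury) and MSGN1 are transcription factors of the streak and of the presomitic mesoderm, and SOX17 and FOXA2 are transcription factors that define the endoderm.

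The 4 defining markers separated the days. SOX17 had 74.5, 204 and 246 CPM in the day 4 libraries, against 0.277, 0.676 and 1.01 CPM in the day 1 libraries, and rose (log2 fold change 8.04 with SE 0.62, adjusted p = 1.45e-06). FOXA2 had 171, 210.04 and 89.6 CPM on day 4 and 1.91, 2.497 and 1.503 CPM on day 1 (log2 fold change 6.32 with SE 0.66, adjusted p = 1.67e-05). Every day 4 library lay above every day 1 library for both genes. T had 1.099, 1.098 and 2.58 CPM on day 4, against 462, 364 and 542 CPM on day 1, and fell (log2 fold change -8.17 with SE 0.72, adjusted p = 4.02e-06). MSGN1 had 0.0393, 0.0399 and 0.0353 CPM in the day 4 libraries, against 23.5, 24.2 and 25.6 CPM in the day 1 libraries (log2 fold change -9.26 with SE 1.07, adjusted p = 4.11e-05). T and MSGN1 were near 0 in all day 4 libraries and well above that in all day 1 libraries. Here CPM is the count of a gene scaled to a fixed library size after TMM normalization. Fold changes are log2 of day 4 over day 1 from edgeR's quasi-likelihood fit, each with its standard error (SE), and p-values were adjusted over all 17401 genes by the Benjamini-Hochberg method, with values under 0.05 called.

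Among further endoderm markers, the chemokine receptor CXCR4 had 101, 509 and 205 CPM on day 4 and 7.52, 6.08 and 5.99 CPM on day 1 (log2 fold change 5.38 with SE 0.72, adjusted p = 0.000121). The homeobox factor HHEX had 17.3, 34.98 and 6.92 CPM on day 4, against 0.804, 1.76 and 0.706 CPM on day 1 (log2 fold change 4.18 with SE 1.03, adjusted p = 0.00931). The secreted Nodal and Wnt inhibitor CER1 had 397, 2683 and 1958 CPM in the day 4 libraries, against 382, 409 and 226 CPM in the day 1 libraries (log2 fold change 2.31 with SE 0.67, adjusted p = 0.0224). Day 4 replicate 1 lay close to the day 1 libraries for CER1, and the call was lost when day 4 replicate 2, day 4 replicate 4, day 1 replicate 1, day 1 replicate 2 or day 1 replicate 4 was left out (adjusted p = 0.0523 to 0.102). GATA6, a zinc finger factor of endoderm, had 124, 697 and 569.8 CPM on day 4 and 231, 248 and 218 CPM on day 1 and was not called (log2 fold change 1.00 with SE 0.57, adjusted p = 0.236). Its day 4 replicate 1 was below all day 1 libraries and its other 2 day 4 libraries were above them; without day 4 replicate 1 the log2 fold change was 1.45 (adjusted p = 0.0493). Among further streak markers, the homeobox factor MIXL1 had 5.24, 136 and 163 CPM on day 4, against 1219.5, 1213 and 1158 CPM on day 1 (log2 fold change -3.56 with SE 0.97, adjusted p = 0.0163), with day 4 replicate 1 far below the other 2 day 4 libraries. EVX1, another homeobox factor, had 8.36, 0.599 and 7.49 CPM in the day 4 libraries, against 131, 62.4 and 116 CPM in the day 1 libraries (log2 fold change -4.24 with SE 1.11, adjusted p = 0.0131). TBX6, a T-box factor of the paraxial mesoderm, had 0.452, 2.16 and 1.31 CPM on day 4 and 6.102, 4.46 and 7.64 CPM on day 1 and was not called (log2 fold change -2.22 with SE 1.01, adjusted p = 0.134), although its libraries of the 2 days did not overlap. When the same edgeR test was fitted to only the 6 libraries of day 1 and day 4, TBX6 was called (log2 fold change -2.18, adjusted p = 0.0212).

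**Figure D1:**
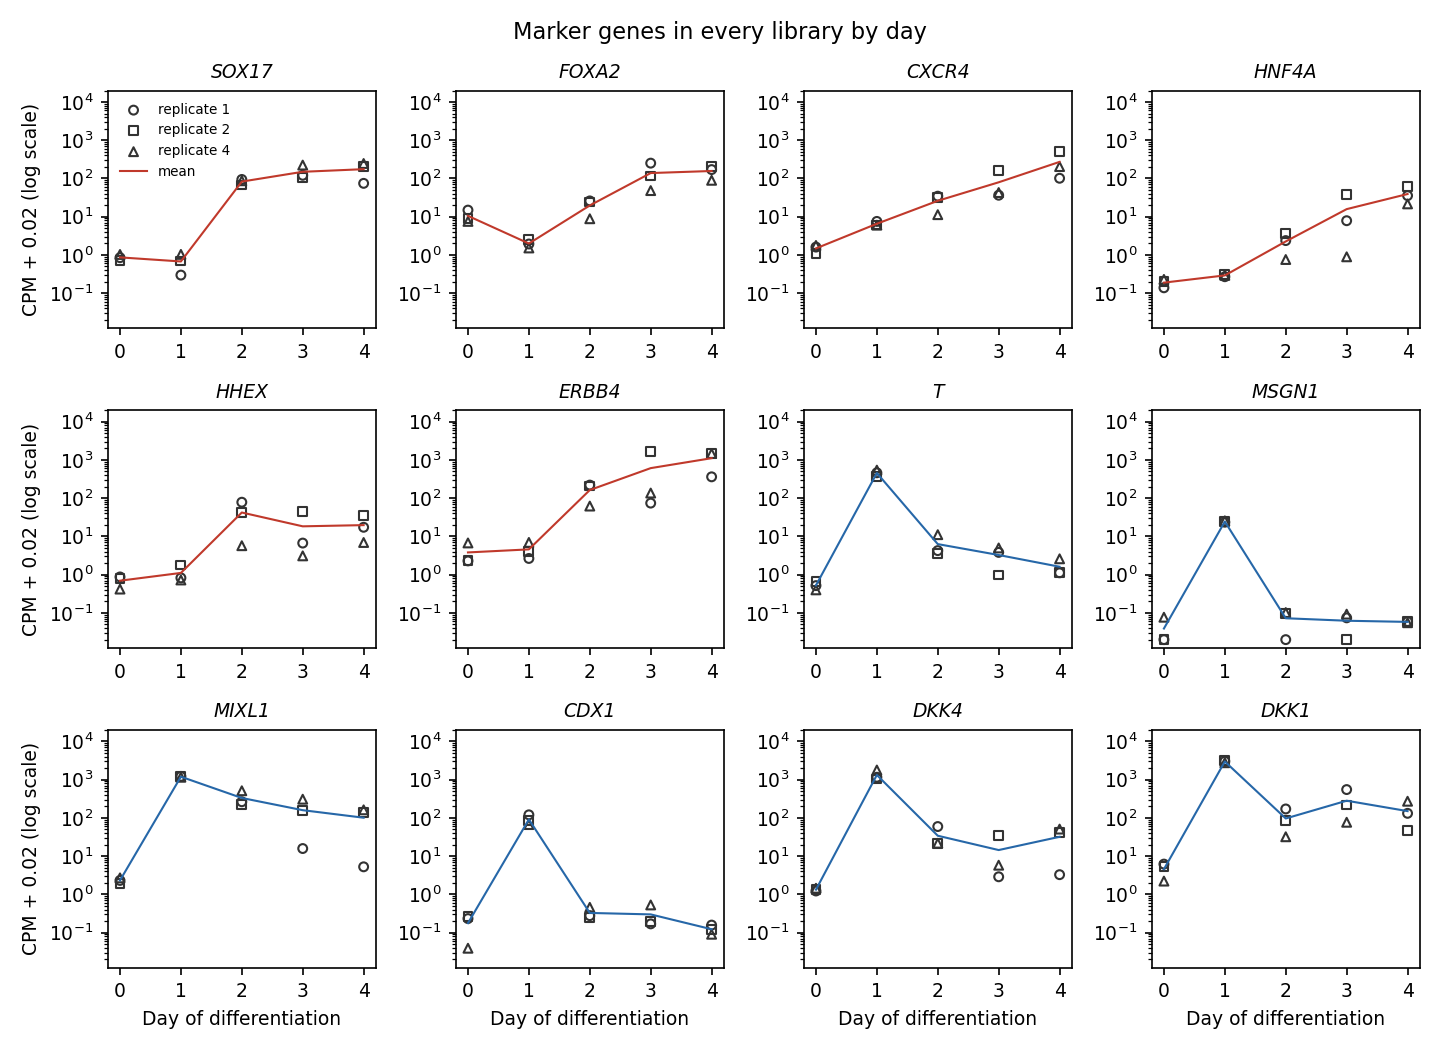
Levels of 12 genes in each of the 15 libraries by day, in CPM plus 0.02 on a log axis; symbols are single libraries and lines join the means of the 3 libraries of a day. SOX17, FOXA2, CXCR4, HNF4A, HHEX and ERBB4 (red lines) were higher on day 4 than on day 1, and T, MSGN1, MIXL1, CDX1, DKK4 and DKK1 (blue lines) were lower, and day 1 was the highest of the 5 days for those 6.

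Total counts were 97914714, 98048836 and 54723184 in the day 4 libraries and 72266892, 69264028 and 100685830 in the day 1 libraries. Day 4 replicate 1 stood apart from its group. The root mean square log2 difference over genes was 1.22 from it to each of the other 2 day 4 libraries and 0.879 between those. It was 0.632 to 0.775 among the day 1 libraries and 1.501 to 1.83 between a day 4 and a day 1 library. Of all 15 libraries, the nearest to day 4 replicate 1 was day 3 replicate 1, of the same number (0.842). CER1, GATA6 and MIXL1 were also lowest there among the day 3 libraries. Ribosomal protein genes took 2.23%, 4.28% and 4.90% of counts in the day 4 libraries and 4.09%, 2.69% and 4.04% in the day 1 libraries. The part of these differences between libraries in the results was not tested; values without day 4 replicate 1 are given where they change a result.

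In all, 2060 genes were higher on day 4 (11.8% of the genes tested) and 1554 were lower (8.93%), 20.8% in either direction, where DESeq2 called 27.2%. With the spread estimated from only the 6 libraries of day 1 and day 4, 2535 genes were higher and 1854 lower. The median log2 fold change over all genes tested was 0.01. The increases were the larger changes: 439 genes rose by at least 4 on the log2 scale and 170 fell by as much, and the median absolute log2 fold change was 2.37 for the increases and 1.64 for the decreases. The libraries of the 2 days did not overlap for 1990 of the 2060 higher and 1553 of the 1554 lower genes, where 43.7% of all genes tested did not overlap. The smallest change called was 0.65 on the log2 scale. Leaving out day 4 replicate 1 gave 1947 higher and 1517 lower genes, and 1732 and 1169 of the genes called with it were among them. Leaving out day 4 replicate 2 gave 1467 and 831, day 1 replicate 1 gave 1279 and 915, and day 1 replicate 2 gave 1274 and 929. In bulk samples, fewer cells of a type and less RNA per cell cannot be told apart, which applies to each decrease reported here.

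**Figure D2:**
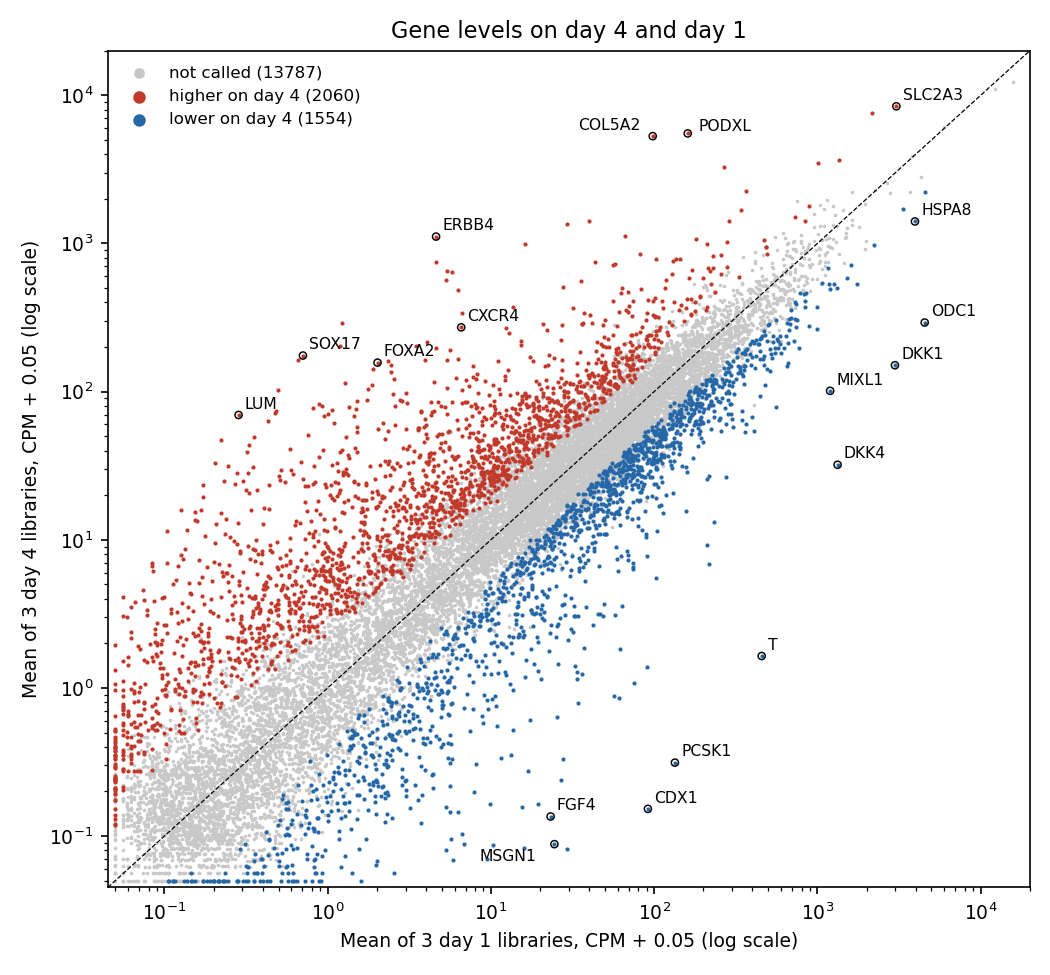
Mean CPM plus 0.05 of the 3 day 4 libraries (vertical) against that of the 3 day 1 libraries (horizontal), both on log axes, for 17401 genes; red genes were called higher on day 4 (2060), blue genes lower (1554) and grey genes not called (13787). Points on the dashed line are equal on both days; SOX17, LUM and ERBB4 are labelled among the genes far above it, and CDX1, MSGN1 and T among those far below.

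Among called genes that reached a mean of 5 CPM and whose libraries did not overlap, LUM, GYPE, SOX17, KLHL6, ERBB4, GYPB and LRRC7 were among the 8 largest increases. LUM encodes lumican, a collagen-binding proteoglycan, and had 54.9, 61.01 and 92.6 CPM on day 4, against 0.222, 0.264 and 0.217 CPM on day 1 (log2 fold change 8.21 with SE 1.33, adjusted p = 0.00057). ERBB4, a receptor tyrosine kinase for neuregulins, had 362, 1504 and 1473 CPM in the day 4 libraries, against 2.63, 4.11 and 6.95 CPM in the day 1 libraries (log2 fold change 7.93 with SE 1.20, adjusted p = 0.000336). Its day 4 replicate 1 was the lowest of the day and still far above day 1. GYPB and GYPE encode glycophorins, surface proteins known from red blood cells. GYPB had 49.3, 156 and 103 CPM on day 4 and 0.194, 0.411 and 0.742 CPM on day 1 (log2 fold change 7.81 with SE 0.73, adjusted p = 6.28e-06). GYPE rose as well (log2 fold change 8.05 with SE 0.82, adjusted p = 1.43e-05), but these genes are near-identical copies and the counting may have split their reads, so each level alone is uncertain. LRRC7, a synaptic scaffold protein, had 16.8, 12.3 and 5.2997 CPM on day 4, against 0.0277, 0.117 and 0.0181 CPM on day 1 (log2 fold change 7.77 with SE 0.99, adjusted p = 8.31e-05). KLHL6 had 1.06, 96.5 and 43.5 CPM in the day 4 libraries, against 0.0555, 0.0294 and 0.434 CPM in the day 1 libraries (log2 fold change 7.98 with SE 1.81, adjusted p = 0.00574), with day 4 replicate 1 close to the day 1 libraries.

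CDX1, MSGN1, PCSK1, TNFRSF9, SCML4, KRT20 and HOTAIRM1 were among the 8 largest decreases by the same criteria. PCSK1, a protease that processes prohormones, had 0.373, 0.2396 and 0.177 CPM on day 4 and 138, 167 and 96.8 CPM on day 1 (log2 fold change -8.96 with SE 0.60, adjusted p = 5.89e-07). TNFRSF9, a receptor of the TNF family known from T cells, had 0.0393, 0.0599 and 0 CPM on day 4, against 22.02, 12.6 and 13.1 CPM on day 1 (log2 fold change -8.71 with SE 1.35, adjusted p = 0.000394). KRT20, a keratin of gut epithelium, had 0, 0.01996 and 0.0353 CPM in the day 4 libraries, against 5.77, 7.02 and 4.76 CPM in the day 1 libraries (log2 fold change -8.37 with SE 1.07, adjusted p = 8.31e-05). All 3 genes were near 0 in each day 4 library. SCML4, a Polycomb-related gene, fell as well (log2 fold change -8.64 with SE 1.13, adjusted p = 0.000189). HOTAIRM1, a long noncoding RNA of the HOXA cluster, had 0.0393, 0 and 0.0707 CPM on day 4 and 7.99, 8.02 and 14.5 CPM on day 1 (log2 fold change -8.21 with SE 1.12, adjusted p = 0.000152). Since it is not known whether the counting used strand, reads of HOTAIRM1 and of genes on the opposite strand may not be told apart where they overlap.

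Of the called genes with the most counts on day 4, the glucose transporter SLC2A3 had 6348, 10986 and 7964 CPM on day 4, against 3575, 3283 and 2282 CPM on day 1 (log2 fold change 1.47 with SE 0.31, adjusted p = 0.00327). PODXL, an anti-adhesive sialomucin, had 7701, 5214 and 3682 CPM in the day 4 libraries, against 155, 158 and 168 CPM in the day 1 libraries (log2 fold change 5.11 with SE 0.52, adjusted p = 1.32e-05). COL5A2, a fibrillar collagen chain, had 3672, 6244 and 6000.00 CPM on day 4 and 74.7, 128 and 91.2 CPM on day 1 (log2 fold change 5.76 with SE 0.42, adjusted p = 1.16e-06). PODXL and COL5A2 rose in every day 4 library, and for PODXL day 4 replicate 1 was the highest. The lysosomal membrane protein LAPTM4B also rose (log2 fold change 1.43 with SE 0.32, adjusted p = 0.00497). PKM2, an older symbol of the pyruvate kinase gene PKM, had 2603, 10796 and 9280.2 CPM on day 4, against 2602, 1939 and 1981 CPM on day 1 (log2 fold change 1.80 with SE 0.52, adjusted p = 0.0227). Its day 4 replicate 1 was at the level of day 1, and the call was lost when day 4 replicate 2, day 4 replicate 4, day 1 replicate 1, day 1 replicate 2 or day 1 replicate 4 was left out (adjusted p = 0.0546 to 0.1). Of the genes with the most counts on day 1, ODC1, the rate-limiting enzyme of polyamine synthesis, had 331, 279 and 269 CPM in the day 4 libraries, against 4786, 5345 and 3496 CPM in the day 1 libraries (log2 fold change -3.96 with SE 0.34, adjusted p = 2.94e-06). PABPC1, the main cytoplasmic poly(A)-binding protein, had 2385, 2035 and 2217 CPM on day 4 and 4538, 4565 and 4544 CPM on day 1 (log2 fold change -1.04 with SE 0.23, adjusted p = 0.00505). NPM1, a nucleolar protein of ribosome assembly, had 1050.4, 918 and 980.4 CPM on day 4, against 2389, 1788 and 2466 CPM on day 1 (log2 fold change -1.17 with SE 0.36, adjusted p = 0.0314), and the call was lost when day 4 replicate 1, day 4 replicate 2, day 4 replicate 4, day 1 replicate 1 or day 1 replicate 4 was left out (adjusted p = 0.0542 to 0.102). ODC1 and PABPC1 were lower in each day 4 library than in any day 1 library. HSPA8 and DKK1, the other 2 genes with the most counts on day 1, are described with their groups below.

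**Figure D3:**
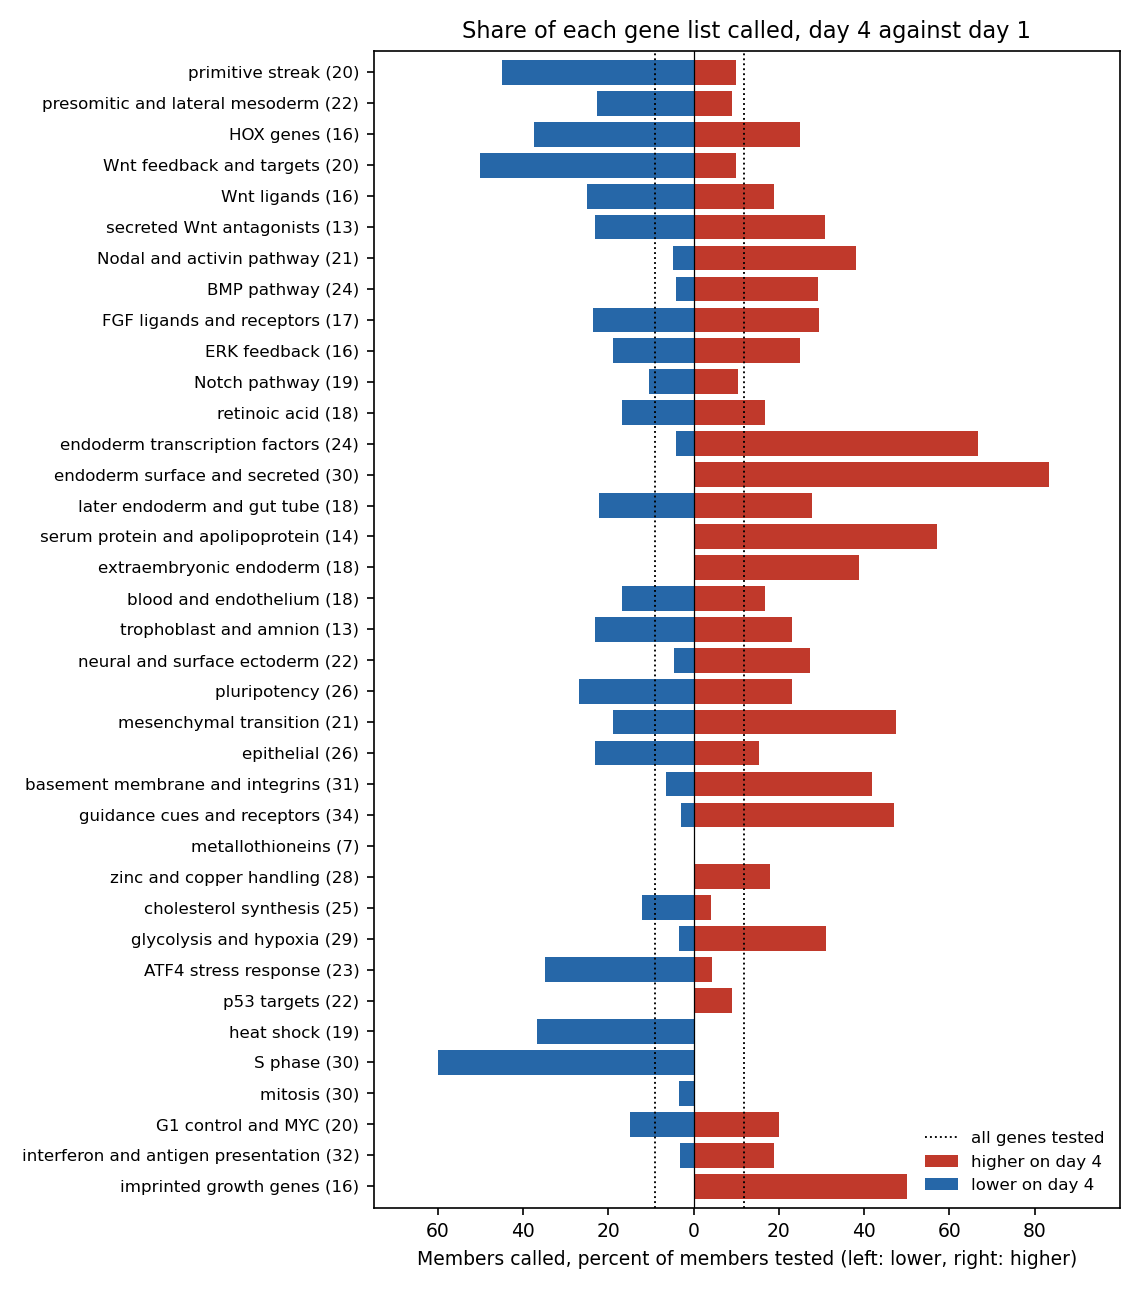
Percent of the tested members of 37 gene lists called higher on day 4 (red, to the right) or lower (blue, to the left); the number tested is in brackets and the dotted lines are the shares over all genes tested, 11.8% and 8.93%. Endoderm surface and secreted genes had the largest share called higher, 83.3%, and S phase genes the largest share called lower, 18 of 30. The lists were chosen with earlier results of these data known, so shares and ranks may come in part from the choice of members.

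Streak genes were lower more often than higher. Of 20 primitive streak genes tested, 9 were lower on day 4 and 2 were higher, with a median log2 fold change of -2.55. CDX1, a caudal homeobox factor, had 0.137, 0.0998 and 0.0707 CPM in the day 4 libraries, against 120.5, 87.2 and 66.97 CPM in the day 1 libraries (log2 fold change -9.74 with SE 0.82, adjusted p = 2.52e-06). Its paralogue CDX2 had 2.26, 0.0799 and 0.742 CPM on day 4 and 98.3, 75.6 and 52.8 CPM on day 1 (log2 fold change -6.19 with SE 1.16, adjusted p = 0.00156). FGF4, a growth factor of the streak, had 0.177, 0.0799 and 0 CPM on day 4, against 28.9, 19.3 and 21.2 CPM on day 1 (log2 fold change -7.96 with SE 1.22, adjusted p = 0.000364). WNT3A, a canonical Wnt ligand of the caudal streak, had 0.0393, 0.0599 and 0.0353 CPM in the day 4 libraries, against 6.74, 3.701 and 6.55 CPM in the day 1 libraries (log2 fold change -6.91 with SE 1.06, adjusted p = 0.000364). All 4 were low in each day 4 library, and without day 4 replicate 1 the log2 fold change was -7.58 for CDX2 and -8.91 for FGF4. The other members called lower were T, EVX1, MIXL1, MESP1 and SP5. The 2 members called higher were LHX1, a LIM homeobox factor of the organizer and anterior endoderm (log2 fold change 2.39), and CYP26A1, an enzyme that degrades retinoic acid. LHX1 was not called when day 4 replicate 4, day 1 replicate 2 or day 1 replicate 4 was left out (adjusted p = 0.0537 to 0.0603). MESP1 was not called when any of the 6 libraries was left out (adjusted p = 0.071 to 0.127).

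SP5, a zinc finger factor and direct Wnt target chosen here after its values were seen, had 51.3, 34.1 and 75.5 CPM on day 4 and 479, 243 and 365 CPM on day 1 (log2 fold change -2.76 with SE 0.59, adjusted p = 0.00398). It and 3 other streak genes that fell are shown with their promoters, because these were the promoters of the group that held the TCF/LEF or the T-box motif. The windows are the 250 bases before the RefSeq start in build GRCh38.p14, not the hg19 build used for the counts, all on the + strand and read 5′ to 3′. They span chr2:170715087-170715336 for SP5, chr1:226223414-226223663 for MIXL1, chr7:27242552-27242801 for EVX1 and chr1:228006748-228006997 for WNT3A. Capitals mark the TCF/LEF motif CTTTGAT in SP5 and MIXL1 and the T-box motif AGGTGTG, read on the opposite strand as CACACCT, in EVX1 and WNT3A.
SP5: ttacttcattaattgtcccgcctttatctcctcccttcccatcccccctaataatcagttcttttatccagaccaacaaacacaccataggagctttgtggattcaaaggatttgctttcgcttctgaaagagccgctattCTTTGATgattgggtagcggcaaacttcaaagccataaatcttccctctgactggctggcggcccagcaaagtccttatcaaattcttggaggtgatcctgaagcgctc
MIXL1: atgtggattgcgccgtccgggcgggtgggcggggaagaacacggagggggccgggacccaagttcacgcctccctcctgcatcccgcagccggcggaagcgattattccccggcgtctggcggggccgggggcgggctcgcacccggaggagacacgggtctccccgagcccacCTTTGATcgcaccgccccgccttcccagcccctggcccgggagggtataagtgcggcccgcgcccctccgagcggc
EVX1: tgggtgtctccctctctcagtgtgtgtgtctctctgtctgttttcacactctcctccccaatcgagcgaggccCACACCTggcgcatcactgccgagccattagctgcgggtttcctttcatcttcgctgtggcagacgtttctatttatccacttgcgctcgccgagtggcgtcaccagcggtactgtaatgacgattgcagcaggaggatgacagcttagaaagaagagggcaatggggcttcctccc
WNT3A: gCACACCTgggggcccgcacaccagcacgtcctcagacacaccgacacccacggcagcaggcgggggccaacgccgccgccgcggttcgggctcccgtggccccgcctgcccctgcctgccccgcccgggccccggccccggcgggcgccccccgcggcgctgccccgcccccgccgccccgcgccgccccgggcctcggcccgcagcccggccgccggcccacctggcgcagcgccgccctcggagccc
The motif began 109 bases before the start in SP5, 76 in MIXL1, 177 in EVX1 and 249 in WNT3A. On both strands, CTTTGAT was in 2.26% of all 35116 promoters in the table and AGGTGTG in 3.84%. Promoters were matched for 6 of the 9 streak genes that fell, with 7 promoters between them, of which 2 held the TCF/LEF motif, 2 the T-box motif and 1, of CDX2, the forkhead motif TGTTTAC, which was in 2.98% of all promoters. Of the 10 Wnt feedback genes that fell, 6 were matched with 8 promoters, of which 1, that of SP5, held CTTTGAT and 1, that of TCF7, held TGTTTAC. Of the 16 endoderm transcription factors that rose, 11 were matched with 22 promoters. None of these held CTTTGAT or TGTTTAC, 1, of GATA3, held AGGTGTG, and 1, of KLF8, held AGATAAG, the motif searched for GATA factors, which was in 2.36% of all promoters. A match of letters is a description of these windows and not a site.

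Presomitic and lateral mesoderm genes were mixed. Of 22 tested, 5 were lower (MSGN1, MESP1, HES7, FOXC1 and APLNR) and 2 were higher, with a median of -1.12. The share lower was 22.7%, against 8.93% of all genes tested, and the share higher was 9.09%, against 11.8%. MSGN1 was called whichever library was left out, but the count of lower members was 3 without day 4 replicate 1, 2 without day 4 replicate 4, day 1 replicate 1 or day 1 replicate 4, and 1 without day 4 replicate 2 or day 1 replicate 2. The higher members were HAND1, a bHLH factor of lateral mesoderm (log2 fold change 2.53), and the growth factor BMP4 (1.42). HAND1 was not called when day 1 replicate 4 was left out (adjusted p = 0.0566), and BMP4 was not called when day 4 replicate 4, day 1 replicate 1 or day 1 replicate 4 was left out (adjusted p = 0.0597 to 0.0999). The summed level of the list was 810.3, 297 and 769.6 CPM in the day 4 libraries and 1127, 1163 and 1164 CPM in the day 1 libraries.

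HOX genes, which pattern the body axis, moved both ways. Of 16 tested, 6 were lower (among them HOXA2, HOXA3, HOXA5, HOXB1 and HOXD1) and 4 were higher (HOXB2, HOXB3, HOXB7 and HOXB8). These were 37.5% and 25.0%, against 8.93% and 11.8% of all genes tested. HOXA2 was not called when any of the 6 libraries of day 4 and day 1 was left out (adjusted p = 0.0688 to 0.0911). HOXD1 was not called when any of these except day 1 replicate 4 was left out (adjusted p = 0.0594 to 0.093). HOXA5 was not called without day 4 replicate 1, day 4 replicate 2, day 1 replicate 1 or day 1 replicate 2 (adjusted p = 0.0526 to 0.0731). HOXA3 had no count in any day 4 library, against 2.22, 1.88 and 0.579 CPM in the day 1 libraries. With a floor of 3 counts per library this was 41.6-fold lower. Every deposited count was even. If each fragment was counted more than once, that floor is too low and the fold too high. HOXB2 had 11.03, 9.24 and 12.2 CPM on day 4, against 1.11, 0.617 and 0.579 CPM on day 1 (log2 fold change 3.82 with SE 0.43, adjusted p = 3.15e-05). HOXB7 had 1.94, 3.91 and 3.75 CPM in the day 4 libraries, against 0.527, 0.294 and 0.3802 CPM in the day 1 libraries (log2 fold change 2.99 with SE 0.59, adjusted p = 0.00221). HOXB2 and HOXB7, chosen after their values were seen, had the 2 largest increases of the list. HOXB8 was not called without day 4 replicate 4, day 1 replicate 2 or day 1 replicate 4 (adjusted p = 0.0593 to 0.0695). HOXB3 was not called without day 1 replicate 4 (adjusted p = 0.0554). The median over the list was 0.01, and it ran from -0.37 without day 4 replicate 1 to 0.21 without day 1 replicate 2. Without day 4 replicate 2, day 1 replicate 1 or day 1 replicate 2 the count of lower members was 3, and without day 1 replicate 4 that of higher members was 2.

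Genes that respond to Wnt signalling were more often lower than higher, in cells from which CHIR99021 had been withdrawn. Of 20 feedback and target genes tested, 10 were lower on day 4 and 2 were higher, with a median of -1.69, and 10 or 11 were lower whichever library was left out. DKK1, a secreted inhibitor of the LRP co-receptors, had 132, 46.8 and 273 CPM on day 4 and 3031, 3154 and 2775 CPM on day 1 (log2 fold change -4.31 with SE 0.79, adjusted p = 0.00144). DKK4, its relative, had 3.26, 41.9 and 51.02 CPM on day 4, against 1158, 1039 and 1792 CPM on day 1 (log2 fold change -5.37 with SE 1.00, adjusted p = 0.0015), with day 4 replicate 1 far below the other 2. APCDD1, a membrane-bound inhibitor, had 5.63, 4.91 and 8.83 CPM in the day 4 libraries, against 87.7, 67.5 and 68.03 CPM in the day 1 libraries (log2 fold change -3.53 with SE 0.41, adjusted p = 4.40e-05). The list's summed level was 1311, 871.9 and 1494 CPM in the day 4 libraries and 7065, 6780 and 6710 CPM in the day 1 libraries. Among the nuclear factors of the pathway, TCF7 and LEF1, often described as activators, fell (log2 fold changes -3.10 and -3.04), and TCF7L1, often described as a repressor, rose. TCF7L1 had 79.5, 112 and 105 CPM on day 4 and 9.93, 6.99 and 8.11 CPM on day 1 (log2 fold change 3.56 with SE 0.28, adjusted p = 1.94e-06). TCF7L2 also rose (2.57). The other members called lower were NKD1, CCND1, AXIN2, RNF43 and SP5, among which NKD1, AXIN2 and RNF43 are negative regulators.

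Wnt ligands moved both ways. Of 16 tested, 4 were lower and 3 were higher, or 25.0% and 18.8%, against 8.93% and 11.8% of all genes tested. WNT5B, a non-canonical ligand, had 3.2003, 6.57 and 10.6 CPM on day 4, against 258, 185 and 206 CPM on day 1 (log2 fold change -5.00 with SE 0.66, adjusted p = 0.000115). WNT6 had 0.177, 0 and 0.106 CPM in the day 4 libraries, against 9.98, 8.08 and 0.543 CPM in the day 1 libraries (log2 fold change -6.03 with SE 1.37, adjusted p = 0.00588), with day 1 replicate 4 far below the other 2 day 1 libraries. WNT5A fell too (-3.35). WNT4 had 0.903, 80.995 and 48.7 CPM on day 4 and 0.194, 0.264 and 0.3802 CPM on day 1 (log2 fold change 7.26 with SE 1.49, adjusted p = 0.00296), with day 4 replicate 1 close to day 1. WNT9B and WNT11 rose (4.35 and 3.44). Of 13 secreted Wnt antagonists tested, 3 were lower (DKK4, DKK1 and SFRP2) and 4 were higher (FRZB, SFRP1, SHISA2 and CER1). SFRP2 was not called when day 4 replicate 2, day 1 replicate 1, day 1 replicate 2 or day 1 replicate 4 was left out (adjusted p = 0.0517 to 0.116). FRZB had 209, 251 and 193 CPM on day 4, against 3.66, 4.49 and 3.82 CPM on day 1 (log2 fold change 5.77 with SE 0.82, adjusted p = 0.000196). SFRP1 had 1907, 1193 and 935 CPM in the day 4 libraries, against 26.7, 31.96 and 28.5 CPM in the day 1 libraries (log2 fold change 5.53 with SE 0.56, adjusted p = 1.32e-05). Both bind Wnt ligands outside the cell, and both were higher in all day 4 libraries.

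The Nodal pathway, which activin A feeds in both groups, rose in part. Of 21 genes tested, 8 were higher and 1, the receptor ACVR1C, was lower, with a median of 0.54. LEFTY2, a feedback inhibitor of Nodal, had 42.4, 1201 and 215 CPM on day 4 and 5.41, 2.94 and 10.4 CPM on day 1 (log2 fold change 6.28 with SE 1.39, adjusted p = 0.00497). LEFTY1 had 1.198, 1522 and 425 CPM on day 4, against 5.74, 2.41 and 7.803 CPM on day 1 (log2 fold change 6.93 with SE 1.99, adjusted p = 0.0218), with day 4 replicate 1 below all 3 day 1 libraries, and the call was lost when day 4 replicate 2, day 1 replicate 1, day 1 replicate 2 or day 1 replicate 4 was left out (adjusted p = 0.0673 to 0.0896). The LEFTY genes are near-identical copies, so the split of reads between them is uncertain. The type I receptor ACVR1B rose by 1.36 on the log2 scale. The count of higher members was 4 without day 4 replicate 2 or day 4 replicate 4, 3 without day 1 replicate 1 or day 1 replicate 4 and 2 without day 1 replicate 2. Without day 4 replicate 1, 2 members were lower.

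Of 24 BMP pathway genes, 7 were higher and 1, MSX1, was lower, with a median of 0.66. That median ran from 0.31 without day 4 replicate 1 to 1.00 without day 4 replicate 2. MSX1 was not called when day 4 replicate 2, day 4 replicate 4, day 1 replicate 1, day 1 replicate 2 or day 1 replicate 4 was left out (adjusted p = 0.0735 to 0.142). Of the 7, BMPER, NOG and SMAD6 are known mainly as regulators that act against BMP signalling. BMPER, a BMP-binding protein, had 163, 22.3 and 76.7 CPM in the day 4 libraries, against 3.02, 3.495 and 1.65 CPM in the day 1 libraries (log2 fold change 5.01 with SE 0.73, adjusted p = 0.00024). The ligand BMP5 had 145, 27.97 and 32.2 CPM on day 4 and 1.25, 1.67 and 1.27 CPM on day 1 (log2 fold change 5.62 with SE 1.16, adjusted p = 0.00308). Day 4 replicate 1 was the highest library for BMPER and BMP5, whose log2 fold changes were 4.19 and 4.43 without it. The inhibitory SMAD6 had 93.1, 52.6 and 102 CPM on day 4, against 8.099, 6.49 and 9.18 CPM on day 1 (log2 fold change 3.38 with SE 0.49, adjusted p = 0.000252), and the antagonist NOG rose by 3.12.

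Of 17 FGF ligands and receptors, 4 ligands were lower and 5 members were higher. FGF19 had 3.73, 1.52 and 18.1 CPM in the day 4 libraries, against 102, 106 and 62.6 CPM in the day 1 libraries (log2 fold change -3.54 with SE 0.69, adjusted p = 0.00215), and FGF18 fell by 4.39. The receptor FGFR2 had 110.2, 97.8 and 77.02 CPM on day 4 and 9.46, 9.84 and 9.92 CPM on day 1 (log2 fold change 3.29 with SE 0.27, adjusted p = 2.52e-06). The count of higher members was 3 with day 4 replicate 2 left out. It became 2 without day 1 replicate 4 and fewer, 1, without day 1 replicate 1 or day 1 replicate 2. Of 16 ERK feedback genes, 3 were lower and 4 were higher, or 18.8% and 25.0%, against 8.93% and 11.8% of all genes tested. EGR1, an immediate early factor, had 1.47, 0.619 and 1.201 CPM on day 4, against 24.7, 19.1 and 16.9 CPM on day 1 (log2 fold change -4.20 with SE 0.73, adjusted p = 0.000899). DUSP4, a phosphatase that inactivates ERK, had 342, 1214 and 695 CPM in the day 4 libraries, against 48.5, 42.1 and 39.5 CPM in the day 1 libraries (log2 fold change 4.11 with SE 0.43, adjusted p = 1.71e-05). ETV4, a factor downstream of FGF, had 25.4, 56.4 and 64.5 CPM on day 4 and 200.1, 184 and 197 CPM on day 1 (log2 fold change -1.99 with SE 0.46, adjusted p = 0.00635). The count of higher members of the ERK list was 1 without day 4 replicate 1, day 1 replicate 2 or day 1 replicate 4 and 2 without day 4 replicate 2, day 4 replicate 4 or day 1 replicate 1. Of 19 Notch genes, 2 were higher and 2 lower, 10.5% each, which is near the 11.8% and 8.93% of all genes tested. The higher were NOTCH3 and HES4 (1 was left without day 4 replicate 4, day 1 replicate 1 or day 1 replicate 4); the lower were HES7 and NRARP (1 was left without day 4 replicate 1 or day 1 replicate 1, and 0 without the others).

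Enzymes of retinoic acid metabolism changed in both directions. ALDH1A2, the main synthetic enzyme of the early embryo, had 0.491, 0.1398 and 0.283 CPM on day 4, against 10.7, 19.9 and 9.36 CPM on day 1 (log2 fold change -5.44 with SE 0.65, adjusted p = 4.94e-05). CYP26A1 had 376, 2149 and 1723 CPM in the day 4 libraries, against 40.4, 30.8 and 48.2 CPM in the day 1 libraries (log2 fold change 5.15 with SE 0.64, adjusted p = 7.26e-05). The libraries of the 2 days did not overlap for either gene. Of 18 members tested, 3 were higher and 3 were lower, 16.7% each, against 11.8% and 8.93% of all genes tested. Among the lower ones was CYP26B1, another degrading enzyme. It was not called when day 4 replicate 1, day 4 replicate 2, day 1 replicate 1 or day 1 replicate 2 was left out (adjusted p = 0.102 to 0.131). The higher count was 1 without day 1 replicate 1 or day 1 replicate 2.

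Endoderm transcription factors mostly rose. Of 24 tested, 16 were higher on day 4 and 1, ONECUT2, was lower, with a median of 2.61, and 12 to 16 were higher when a library was left out. HNF4A, a nuclear receptor of liver and gut, had 35.6, 60.4 and 21.6 CPM on day 4 and 0.2496, 0.294 and 0.272 CPM on day 1 (log2 fold change 7.17 with SE 1.10, adjusted p = 0.000364). SOX21, known also as a neural factor, had 3.83, 27.03 and 9.61 CPM on day 4, against 0.111, 0.0587 and 0.145 CPM on day 1 (log2 fold change 6.96 with SE 1.15, adjusted p = 0.00066). GATA4 had 201, 473 and 466 CPM in the day 4 libraries, against 95.4, 64.4 and 50.8 CPM in the day 1 libraries (log2 fold change 2.44 with SE 0.40, adjusted p = 0.000657). GATA3 had 103, 24.1 and 36.7 CPM on day 4 and 3.72, 2.94 and 3.89 CPM on day 1 (log2 fold change 3.96 with SE 0.70, adjusted p = 0.00102) and was highest in day 4 replicate 1, without which its log2 fold change was 3.11. OTX2, PRDM1, KLF8 and ELF3, outside the naming rule, rose by 2.10 to 4.57. The day 4 libraries lay above the day 1 libraries for each of the 4 genes with values in every library here.

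Endoderm surface and secreted genes had the largest share of increases among the 37 lists. The lists were chosen with earlier results of these data known, so this share and rank may come in part from the choice of members. Of 30 tested, 25 were higher and 0 were lower (0 also at an unadjusted p under 0.05 and by DESeq2), against 11.8% of all genes higher, with a median of 4.17, and 22 to 26 were higher when a library was left out. CCKBR, a receptor for gastrin and cholecystokinin, had 291, 1316 and 629.96 CPM on day 4, against 3.19, 3.58 and 6.86 CPM on day 1 (log2 fold change 7.36 with SE 0.63, adjusted p = 2.88e-06). NTN4, a secreted netrin, had 133, 187 and 137 CPM in the day 4 libraries, against 1.803, 2.26 and 3.11 CPM in the day 1 libraries (log2 fold change 5.99 with SE 0.46, adjusted p = 1.45e-06). DIO3, an enzyme that inactivates thyroid hormone, had 263, 920.5 and 734 CPM on day 4 and 8.29, 3.94 and 4.83 CPM on day 1 (log2 fold change 6.81 with SE 0.68, adjusted p = 1.32e-05). Day 4 replicate 2 was the highest library for all 3 genes. DIO3 lies opposite the noncoding DIO3OS, and with the use of strand not given its level is uncertain. STC1, RIPPLY1, ANKRD1, VTN, CPE, TNNC1, RNASE1 and KIT were among the others and rose by 3.36 to 6.75.

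Serum protein and apolipoprotein genes, products of the liver and of the yolk sac, were called higher in 8 of 14 tested and lower in 0 by edgeR (2 at an unadjusted p under 0.05, 0 by DESeq2), with a median of 2.52 (3.78 without day 1 replicate 4). APOA1 had 98.1, 71.4 and 56.6 CPM on day 4, against 1.11, 1.47 and 0.471 CPM on day 1 (log2 fold change 6.22 with SE 1.04, adjusted p = 0.000694). APOA2 had 4.61, 17.7 and 7.07 CPM in the day 4 libraries, against 0.2496, 0.206 and 0.199 CPM in the day 1 libraries (log2 fold change 5.48 with SE 0.97, adjusted p = 0.00108). HP, which encodes haptoglobin, had 2.12, 5.01 and 4.31 CPM on day 4 and 0.0555, 0 and 0.0543 CPM on day 1 (log2 fold change 6.60 with SE 1.14, adjusted p = 0.000905). The count was 5 without day 4 replicate 2 or day 1 replicate 4 and 4 without day 1 replicate 1 or day 1 replicate 2. Of 18 genes of later endoderm and gut tube, 5 were higher and 4 were lower. HNF4A, IRX3, MNX1 and SOX2 were among the higher members. NKX6-1, a factor of the pancreas, had 0.0196, 0 and 0.0707 CPM on day 4, against 7.74, 4.29 and 3.73 CPM on day 1 (log2 fold change -7.60 with SE 1.36, adjusted p = 0.00116), and SOX9 fell by 3.78.

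**Figure D4:**
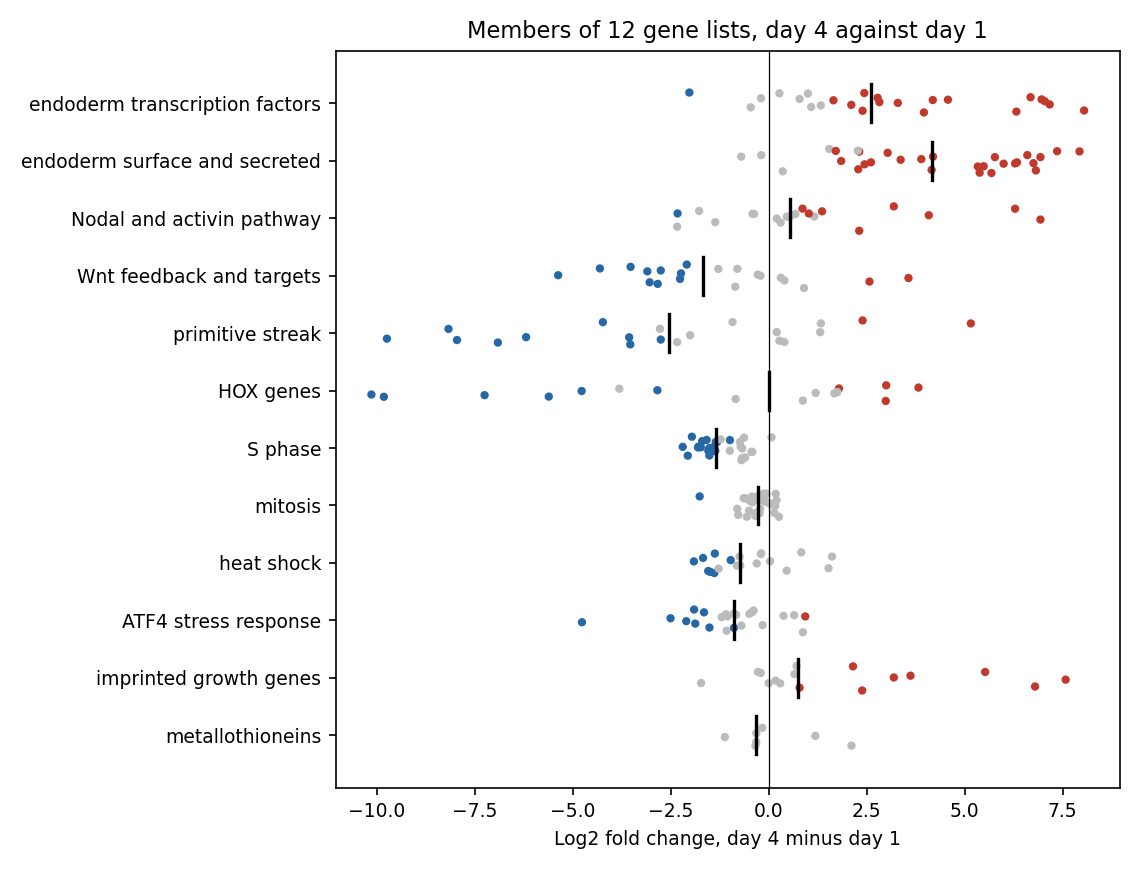
Log2 fold change (day 4 minus day 1) of each tested member of 12 gene lists; red and blue points were called higher and lower, grey points were not called, and black bars are list medians. The medians were 2.61 for endoderm transcription factors, 4.17 for endoderm surface and secreted genes, -2.55 for primitive streak genes, -1.36 for S phase genes and -0.28 for mitosis genes.

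Markers of other cell types that a bulk sample could hold moved in part. Of 18 extraembryonic endoderm genes, 7 were higher and 0 lower by edgeR, by DESeq2 or at an unadjusted p under 0.05, with a median of 1.17, and the list's summed level was 6541, 4790 and 5076 CPM in the day 4 libraries and 2835, 2950 and 2659 CPM in the day 1 libraries. COL4A1, a basement membrane collagen, had 1821, 661 and 712 CPM in the day 4 libraries, against 153, 235 and 152 CPM in the day 1 libraries (log2 fold change 2.57 with SE 0.49, adjusted p = 0.0017), and its log2 fold change was 1.93 without day 4 replicate 1. CUBN, an endocytic receptor, had 4.202, 10.9 and 18.3 CPM on day 4 and 1.75, 1.997 and 1.23 CPM on day 1 (log2 fold change 2.75 with SE 0.60, adjusted p = 0.00449). Of 18 blood and endothelial genes, 3 were higher and 3 lower, 16.7% each, against 11.8% and 8.93% of all genes tested. LMO2, a haematopoietic cofactor, had 2.02, 2.58 and 3.25 CPM on day 4, against 41.4, 45.7 and 39.99 CPM on day 1 (log2 fold change -4.02 with SE 0.39, adjusted p = 1.00e-05). CDH5, the endothelial cadherin, had no count on day 1 and 2.06, 0.399 and 0.601 CPM in the day 4 libraries. With the same floor of 3 counts, which may be too low, it was 27.1-fold higher. CD34 had 4.85, 1.02 and 0.495 CPM in the day 4 libraries, against 0, 0 and 0.0362 CPM in the day 1 libraries. The summed level of the list was 310.2, 105.8 and 236.4 CPM on day 4 and 326.1, 366.3 and 391.1 CPM on day 1. Of 13 trophoblast and amnion genes, 3 were higher (HAND1, GATA3 and GCM1) and 3 lower (CDX2, WNT6 and GABRP), where GABRP was not called when day 4 replicate 2, day 4 replicate 4, day 1 replicate 1 or day 1 replicate 2 was left out (adjusted p = 0.0664 to 0.152), with summed levels of 244.9, 110.3 and 161.2 CPM on day 4 and 147.2, 117.5 and 81.3 CPM on day 1. GCM1 had no count on day 1 and 0.137, 0.16 and 0.177 CPM on day 4, 4.2-fold higher with that floor. Of 22 neural and surface ectoderm genes, 6 were higher and 1 was lower, with summed levels of 333.6, 725.4 and 824.9 CPM on day 4 and 781.5, 709.7 and 685.9 CPM on day 1. PAX6, a neural and eye factor, had 2.34, 60.5 and 17.5 CPM on day 4 and 0.2496, 0.529 and 0.579 CPM on day 1 (log2 fold change 5.88 with SE 1.25, adjusted p = 0.00381), and LHX2 had 2.08, 73.9 and 22.6 CPM on day 4, against 0.693, 0.646 and 1.96 CPM on day 1 (log2 fold change 4.89 with SE 1.09, adjusted p = 0.00512). Day 4 replicate 1 was the lowest of its day for both. ZIC1, the lower member, was not called when day 4 replicate 1, day 4 replicate 2, day 4 replicate 4, day 1 replicate 1 or day 1 replicate 4 was left out (adjusted p = 0.0544 to 0.348). The part of these cell types in the results was not tested.

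Of 26 pluripotency genes, 7 were lower and 6 higher, with a median of -0.09 that ran from -0.19 without day 1 replicate 2 to -0.01 without day 1 replicate 1. POU5F1 (OCT4) had 16.8, 27.97 and 119 CPM in the day 4 libraries, against 480.5, 324 and 430.2 CPM in the day 1 libraries (log2 fold change -2.91 with SE 0.93, adjusted p = 0.036), and the call was lost when day 4 replicate 1, day 4 replicate 2, day 1 replicate 1, day 1 replicate 2 or day 1 replicate 4 was left out (adjusted p = 0.062 to 0.133). SOX2, its partner in ES cells and also a gut and neural factor, rose by 2.82. DPPA3, a maternal and germ cell factor, had 1.83, 3.93 and 3.57 CPM on day 4 and 0.194, 0.323 and 0.109 CPM on day 1 (log2 fold change 3.91 with SE 0.83, adjusted p = 0.00362). The count of lower members was 3 without day 4 replicate 1 or day 1 replicate 2 and 4 without day 4 replicate 2, day 1 replicate 1 or day 1 replicate 4. The list's summed level was 3225, 2674 and 3116 CPM in the day 4 libraries and 4106, 4272 and 3713 CPM in the day 1 libraries.

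Adhesion changed in both the epithelial and the mesenchymal list. CDH1 (E-cadherin) had 16.5, 8.38 and 54.02 CPM on day 4, against 266, 290.1 and 270.1 CPM on day 1 (log2 fold change -3.39 with SE 0.84, adjusted p = 0.00976). Its regulator GRHL2 had 1.53, 0.938 and 2.51 CPM in the day 4 libraries, against 13.98, 11.4 and 14.8 CPM in the day 1 libraries (log2 fold change -3.02 with SE 0.65, adjusted p = 0.00384). SNAI1, a repressor of CDH1, was also lower, with 16.4, 12.8 and 19.96 CPM on day 4 and 77.5, 77.04 and 56.99 CPM on day 1 (log2 fold change -2.11 with SE 0.48, adjusted p = 0.00584). FN1, fibronectin, had 3990.1, 1793 and 971 CPM on day 4, against 370.4, 365 and 361 CPM on day 1 (log2 fold change 2.62 with SE 0.46, adjusted p = 0.00105); day 4 replicate 1 was the highest and the log2 fold change without it was 1.92. CLDN3, a tight junction protein, had 5.62, 11.1 and 3.498 CPM in the day 4 libraries, against 0.166, 0.0881 and 0.344 CPM in the day 1 libraries (log2 fold change 5.04 with SE 0.75, adjusted p = 0.000276). Of 26 epithelial genes, 6 were lower and 4 higher, or 23.1% and 15.4%, against 8.93% and 11.8% of all genes tested. Of 21 mesenchymal transition genes, 10 were higher and 4 lower, with a median of 1.06. The higher count was 6 with day 4 replicate 4 left out. It became 5 without day 1 replicate 2 and fewer, 4, without day 1 replicate 1 or day 1 replicate 4, and the lower count 2 without day 4 replicate 2 or any day 1 library.

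Matrix and guidance genes were more often higher than lower. Of 31 basement membrane and integrin genes, 13 were higher (8 without day 1 replicate 1) and 2 lower, with a median of 1.05; the lower count was 0 without day 4 replicate 2 or day 1 replicate 1 and 1 without day 4 replicate 4, day 1 replicate 2 or day 1 replicate 4. COL4A6, a type IV collagen chain, had 431, 279 and 152 CPM on day 4 and 22.9, 49.5 and 35.6 CPM on day 1 (log2 fold change 3.00 with SE 0.54, adjusted p = 0.00115). ITGA4, an integrin subunit that binds fibronectin, had 43.4, 88.4 and 61.8 CPM on day 4, against 3.61, 7.64 and 7.24 CPM on day 1 (log2 fold change 3.39 with SE 0.72, adjusted p = 0.00358). Of 34 guidance cues and receptors, 16 were higher and 1, SLIT2, was lower, with a median of 1.09; without day 4 replicate 1, 4 were lower. SEMA6D, a membrane semaphorin, had 86.9, 129 and 44.6 CPM in the day 4 libraries, against 1.55, 1.41 and 1.43 CPM in the day 1 libraries (log2 fold change 5.89 with SE 0.44, adjusted p = 1.34e-06). SEMA3E, a secreted semaphorin, had 312, 293 and 198 CPM on day 4 and 13.5, 12.8 and 10.8 CPM on day 1 (log2 fold change 4.44 with SE 0.44, adjusted p = 1.04e-05). SLIT3, a secreted ligand of ROBO receptors, had 68.97, 23.9 and 50.6 CPM on day 4, against 2.02, 2.29 and 2.28 CPM on day 1 (log2 fold change 4.44 with SE 0.54, adjusted p = 5.93e-05). SLIT2 and SLIT3 thus moved in opposite directions, with -2.66 for SLIT2.

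DNA replication genes were mostly lower, and mitosis genes mostly did not pass the test. Of 30 S phase genes, 18 were lower and 0 higher by edgeR, by DESeq2 or at an unadjusted p under 0.05, against 8.93% of all genes lower, with a median of -1.36, and 14 to 19 were lower when a library was left out. RRM2, the regulated subunit of ribonucleotide reductase, had 77.9, 52.98 and 64.5 CPM in the day 4 libraries, against 344, 327 and 225 CPM in the day 1 libraries (log2 fold change -2.20 with SE 0.41, adjusted p = 0.0015). MCM4, of the replicative helicase, had 252, 81.6 and 136 CPM on day 4 and 640.2, 759 and 569 CPM on day 1 (log2 fold change -2.07 with SE 0.39, adjusted p = 0.0016). CCNE1, cyclin E1, had 22.1, 9.44 and 14.1 CPM on day 4, against 59.4, 60.7 and 57.98 CPM on day 1 (log2 fold change -1.96 with SE 0.32, adjusted p = 0.000591). All 3 genes were lower in every day 4 library than in any day 1 library. The summed level of the list was 2616, 1577 and 2115 CPM in the day 4 libraries and 5529, 5839 and 4605 CPM in the day 1 libraries. Of 30 mitosis genes, 1 was lower (2 by DESeq2, 5 at an unadjusted p under 0.05) and 0 higher by either tool or at an unadjusted p under 0.05, with a median of -0.28. That gene was CENPE, a centromere motor, with 55.5, 74.5 and 59.6 CPM in the day 4 libraries, against 159, 198 and 287 CPM in the day 1 libraries (log2 fold change -1.76 with SE 0.32, adjusted p = 0.00123). The summed level of the mitosis list was 4096, 4273 and 4009 CPM on day 4 and 4510, 5272 and 4910 CPM on day 1. The difference between the lists was not tested.

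Of 20 genes of G1 control and MYC, 4 were higher, each an inhibitor of cyclin-dependent kinases. CDKN1B (p27) had 135, 135 and 84.5 CPM on day 4 and 18.1, 19.3 and 19.1 CPM on day 1 (log2 fold change 2.65 with SE 0.45, adjusted p = 0.000855). CDKN1C (p57) had 47.04, 61.99 and 79.04 CPM on day 4, against 16.97, 12.2 and 13.2 CPM on day 1 (log2 fold change 2.15 with SE 0.41, adjusted p = 0.00197). CDKN2C (p18) had 1.67, 2.52 and 3.85 CPM in the day 4 libraries, against 0.166, 0.0294 and 0.0181 CPM in the day 1 libraries (log2 fold change 5.25 with SE 0.82, adjusted p = 0.000424). The day 4 libraries lay above the day 1 libraries for all 3 genes. The fourth was CDKN2D, which was not called when day 4 replicate 2, day 4 replicate 4, day 1 replicate 1, day 1 replicate 2 or day 1 replicate 4 was left out (adjusted p = 0.0612 to 0.166). CCND1, cyclin D1 and a Wnt target, had 127, 51.6 and 101 CPM on day 4 and 479.9, 511 and 351 CPM on day 1 (log2 fold change -2.27 with SE 0.42, adjusted p = 0.00143), and CDK4 and E2F4 were also lower. CDK4 was not called when day 1 replicate 2 was left out (adjusted p = 0.0665), and E2F4 was not called when day 4 replicate 2, day 4 replicate 4, day 1 replicate 1 or day 1 replicate 2 was left out (adjusted p = 0.0591 to 0.115).

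Chaperone and amino acid supply genes were in part lower on day 4. Of 19 heat shock genes, 7 were lower and 0 higher by edgeR (1 by DESeq2, 2 at an unadjusted p under 0.05), with a median of -0.75; without day 4 replicate 1, 2 were higher. HSPA8, the constitutive cytosolic HSP70, had 1012, 1828 and 1384 CPM on day 4, against 4789.9, 4070.2 and 3018 CPM on day 1 (log2 fold change -1.49 with SE 0.34, adjusted p = 0.00616). HSPA9, the mitochondrial HSP70, had 321, 240.1 and 275 CPM in the day 4 libraries, against 937, 943 and 795 CPM in the day 1 libraries (log2 fold change -1.68 with SE 0.29, adjusted p = 0.000994). HSPH1, a nucleotide exchange factor, had 159, 99.6 and 153 CPM on day 4 and 457, 635 and 455 CPM on day 1 (log2 fold change -1.91 with SE 0.45, adjusted p = 0.00718). Of 23 ATF4 response genes, 8 were lower and 1, VLDLR, was higher, with a median of -0.89. ALDH1L2, an enzyme of mitochondrial folate metabolism, had 1.61, 0.499 and 1.59 CPM on day 4, against 33.8, 37.9 and 28.8 CPM on day 1 (log2 fold change -4.77 with SE 0.56, adjusted p = 4.67e-05). ASNS, asparagine synthetase, had 133, 132 and 67.6 CPM in the day 4 libraries, against 487, 442 and 507 CPM in the day 1 libraries (log2 fold change -2.11 with SE 0.47, adjusted p = 0.00492). PSAT1, of serine synthesis, had 378, 217 and 205 CPM on day 4 and 1127, 943 and 928 CPM on day 1 (log2 fold change -1.91 with SE 0.35, adjusted p = 0.00145). The lower count was 3 with day 4 replicate 2 left out. It became 4 without day 4 replicate 4, while 5 were lower without day 1 replicate 1 or day 1 replicate 2. VLDLR was not called when day 4 replicate 2, day 4 replicate 4, day 1 replicate 1, day 1 replicate 2 or day 1 replicate 4 was left out (adjusted p = 0.0824 to 0.166).

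Of 29 glycolysis and hypoxia genes, 9 were higher and 1, LDHB, was lower, with a median of 0.03 whose sign turned with the library left out (-0.25 without day 4 replicate 2 to 0.20 without day 4 replicate 1). Without day 4 replicate 2, 3 were higher and 2 lower. ADM, a vasoactive peptide and hypoxia target, had 68.9, 86.3 and 100.2 CPM on day 4, against 8.29, 5.11 and 3.89 CPM on day 1 (log2 fold change 3.88 with SE 0.52, adjusted p = 0.000121). The growth factor VEGFA rose by 2.00 on the log2 scale and was not called when day 4 replicate 2 was left out (adjusted p = 0.0623). Of 25 cholesterol synthesis genes, 3 were lower and 1 higher. TM7SF2, a sterol reductase, had 25.5, 40.1 and 38.8 CPM in the day 4 libraries, against 8.29, 4.73 and 10.3 CPM in the day 1 libraries (log2 fold change 2.16 with SE 0.41, adjusted p = 0.0017). Of 22 p53 targets, 2 were higher (BTG2 and TP53INP1) and 0 lower. The share higher, 9.09%, was near the 11.8% of all genes tested. BTG2, an antiproliferative gene, had 67.3, 115 and 66.2 CPM on day 4 and 13.4, 18.5 and 13.1 CPM on day 1 (log2 fold change 2.47 with SE 0.35, adjusted p = 0.000212), and was the 1 member called higher when any day 1 library was left out. TP53INP1 was not called when day 4 replicate 1, day 1 replicate 1, day 1 replicate 2 or day 1 replicate 4 was left out (adjusted p = 0.0842 to 0.133). At an unadjusted p under 0.05, 1 target was lower, and 0 by DESeq2; without day 4 replicate 1, 1 was lower by edgeR.

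Metallothioneins, small metal-binding proteins named in the series title, did not pass the test. Of 12 in the list, 7 were tested and 0 were called by edgeR, by DESeq2 or at an unadjusted p under 0.05. MT2A had 2.34, 3.47 and 12.4 CPM on day 4, against 3.16, 2.09 and 2.75 CPM on day 1 (log2 fold change 1.19 with SE 0.83, adjusted p = 0.35). MT1X had 1.47, 1.797 and 4.24 CPM in the day 4 libraries, against 7.21, 3.94 and 5.14 CPM in the day 1 libraries (log2 fold change -1.12 with SE 0.80, adjusted p = 0.354). The days overlapped for MT2A, with day 4 replicate 4 the highest, and for MT1X day 4 replicate 4 lay within the range of day 1. Of 28 genes of zinc and copper handling, 5 were higher and 0 lower by edgeR (1 by DESeq2 and 1 at an unadjusted p under 0.05). Those higher were 17.9% of the list, against 11.8% of all genes tested. SLC30A4, a zinc exporter, had 4.65, 7.85 and 4.66 CPM on day 4 and 0.388, 0.587 and 0.616 CPM on day 1 (log2 fold change 3.43 with SE 0.67, adjusted p = 0.00224). SLC39A11, a zinc importer, had 23.6, 14.2 and 13.1 CPM on day 4, against 4.05, 7.08 and 6.77 CPM on day 1 (log2 fold change 1.51 with SE 0.34, adjusted p = 0.0053). The count was 3 without day 4 replicate 2, day 1 replicate 1 or day 1 replicate 2 and 2 without day 1 replicate 4, and 2 members were lower without day 4 replicate 1.

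Imprinted growth genes were higher or were not called. Of 16 tested, 8 were higher and 0 lower by edgeR (0 by DESeq2, 1 at an unadjusted p under 0.05), with a median of 0.75, and 7 or 8 were higher when a library was left out. RTL1, a retrotransposon-derived gene of the DLK1-DIO3 domain, had 9.797, 23.1 and 14.5 CPM in the day 4 libraries, against 0.0555, 0.0294 and 0.145 CPM in the day 1 libraries (log2 fold change 7.57 with SE 0.62, adjusted p = 2.29e-06). H19, a noncoding RNA, had 42.8, 33.7 and 45.3 CPM on day 4 and 1.03, 1.12 and 0.525 CPM on day 1 (log2 fold change 5.52 with SE 0.71, adjusted p = 9.44e-05). Its neighbour IGF2, a growth factor, had 2.47, 1.58 and 5.05 CPM on day 4, against 0.0555, 0.0294 and 0 CPM on day 1 (log2 fold change 6.79 with SE 1.14, adjusted p = 0.00073). PEG10, another retrotransposon-derived gene, had 4835, 1919 and 3050.1 CPM in the day 4 libraries, against 224, 257 and 319.8 CPM in the day 1 libraries (log2 fold change 3.61 with SE 0.57, adjusted p = 0.000427). The day 4 libraries lay above the day 1 libraries for all 4 genes. DLK1, SNRPN and CDKN1C rose by 2.15 to 3.19. RTL1 has antisense transcripts, which counts without strand cannot separate. Of 32 genes of the interferon response and antigen presentation, 6 were higher and 1, TAP2, was lower (3 higher without day 1 replicate 2 or day 1 replicate 4). In shares, 18.8% were higher and 3.12% lower, against 11.8% and 8.93% of all genes tested. OAS1, a sensor of double-stranded RNA, had 0.825, 3.57 and 15.3 CPM on day 4 and 0.0277, 0.0587 and 0.127 CPM on day 1 (log2 fold change 6.43 with SE 1.10, adjusted p = 0.000821), and BST2, which tethers virions, had 24.9, 105 and 65.6 CPM on day 4, against 2.55, 2.88 and 6.21 CPM on day 1 (log2 fold change 4.06 with SE 0.90, adjusted p = 0.00479).

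The days between and before show when the levels changed, as log2 of each day's mean CPM + 0.5 and with no test. A single high library can weigh most in such a mean. Of the 2060 genes higher on day 4, 1137 (55.2%) were nearer to their day 4 than to their day 1 level by day 2, and 1856 (90.1%) by day 3, when 754 were beyond the day 4 level. Of the 1554 lower genes, 986 (63.4%) were nearer to day 4 by day 2 and 1420 (91.4%) by day 3. On day 0, 356 of the higher genes (17.3%) and 386 of the lower genes (24.8%) were nearer to their day 4 level. Among those higher genes, SFRP1 averaged 1274, 29.04 and 1345 CPM on days 0, 1 and 4, and PODXL 2335, 160.6 and 5532 CPM. TCF7L1 averaged 123.4, 8.34 and 98.6 CPM, FGFR2 80.3, 9.74 and 95.02 CPM, and ADM 101.5, 5.77 and 85.1 CPM on these days. SOX17 averaged 0.844, 0.656, 82.9, 149.6 and 175 CPM on days 0, 1, 2, 3 and 4. T averaged 0.504, 456, 6.28, 3.25 and 1.59 CPM and CXCR4 1.46, 6.53, 26.04, 79.5 and 272 CPM over the same days.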

How the data were processed

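The libraries came from polyA-selected RNA and were directional, per the labels' protocols. Reads were handled with TopHat2 2.0.14 and hg19, per the submitters' processing notes; which program counted, with which annotation and whether by strand, is not given in the sources used here. The authors deposited raw gene counts, whole numbers per symbol and library without normalization, and every value was even. Of 23398 entries, 44 identical repeats were dropped and 8 repeated ones summed, leaving 23346 symbols, 2605 without a count. Library totals ran from 54723184 to 145857940 counts over the 15 libraries, where 3 counts are 0.0206 to 0.0548 CPM. Floors cover counting error only, and are too low if each fragment was counted more than once.

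The test was edgeR 4.0.16's quasi-likelihood F test (R 4.3.3, limma 3.58.1) with TMM scaling, filterByExpr by day (17401 genes kept), all 15 libraries, a mean per day and the contrast day 4 minus day 1. The biological coefficient of variation was 45.5%. The script was tested on simulated data. SEs are the log2 fold change over the square root of F. Alternatives included DESeq2 1.42.0. Tables were made with Python 3.11.15 and pandas 2.3.3.

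The comparison, its markers and the 37 gene lists (768 genes, written from general knowledge) were chosen with earlier results of these data known. The naming rule took the 8 largest increases and decreases among called genes that reached a mean of 5 CPM on the higher day and whose libraries did not overlap, the 5 called genes of highest CPM on each day with at least a 2-fold change, the markers, and up to 4 called members per list. Some genes it takes are not reported here. Genes outside it, given mostly by fold change alone, were chosen after their values were seen. Promoters are RefSeq's, from a GRCh38.p14 table.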

Additional observations from a re-analysis of the deposited data

How the results depend on the processing

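With the replicate number as a block, 2540 genes were higher and 2373 lower, against 2060 and 1554 without it. Deviations of same-numbered day 4 and day 1 libraries from their day means correlated at -0.205, -0.155 and 0.0463, and the main test took no pairing. That check left out the other days, whose libraries are in the fit. The root mean square log2 difference between same-numbered libraries of days 3 and 4 was 0.842, 0.926 and 1.038 for replicates 1, 2 and 4. Each day 4 library was nearer to that day 3 library than to any other of day 3 (0.988 to 1.447). Between days 2 and 3 the difference was 0.969 for replicate 2 and 0.938 for replicate 4. It was 1.2084 between replicate 1 of day 2 and of day 3, against 1.0999 from the former to day 3 replicate 2. Whether the numbers mark series of libraries was not tested. The block with only the 6 libraries of both days, chosen after seeing the data, gave 1804 and 1246. A test against a 1.5-fold change gave 1444 higher and 848 lower genes. With a library left out, the counts ran from 1274 to 1947 higher and from 831 to 1517 lower, and without replicate 1 on all 5 days they were 1280 and 727. DESeq2 called 2728 and 2010. DESeq2's size factors, plain library totals, an unfiltered table, genes over 1 CPM in at least 3 libraries, halved counts and the 6 libraries alone gave 1963 to 2535 higher and 1376 to 1854 lower genes. No gene called in the main test was called in the other direction under these 17 alternatives, and none of the 154 called genes that the naming rule took changed sign; 110 of them were called without replicate 1 on all days and 129 to 140 with a single library left out. On the forward strand alone, 1.10% of promoters held the TCF/LEF, 2.03% the T-box, 1.52% the forkhead and 1.19% the GATA motif. Changes under 0.65 on the log2 scale were not called, which does not show that these genes did not differ. Genes of a few counts per library, such as the HOX genes, rest on little depth.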
